A study of Caenorhabditis elegans with 2 samples.

Results

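PBRM-1 peaks at small noncoding RNA genes of Caenorhabditis elegans are described here. A peak was taken as a member when its summit lay inside or within 500 bp of an annotated small nucleolar RNA (snoRNA), small nuclear RNA (snRNA) or microRNA (miRNA) gene and more than 500 bp from any tRNA gene. The rule was met by 231 of the 3243 peaks in the list that combines both replicates, and the other 3012 peaks are the rest of the series. Of the members, 135 reached only snoRNA genes, 63 only snRNA genes and 31 only miRNA genes, and 2 reached both a snoRNA and a snRNA gene. By the nearest gene, 136 were snoRNA peaks, 64 snRNA peaks and 31 miRNA peaks. The rule used position alone and no peak height, and a further 5 peaks near these genes were left out because a tRNA gene lay close by. By the same rule, 149 peaks of the own list of replicate 1 and 190 of that of replicate 2 would be members.

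The study mapped PBRM-1 by chromatin immunoprecipitation and sequencing with an antibody against GFP. The worms were whole young adults, aged 64.5 h, of strain RW12226, in which CRISPR placed a TY1, EGFP and 3xFLAG tag on pbrm-1 at its own locus (st12226). They had been synchronised by bleaching and starving the hatched L1 larvae, and their chromatin was sonicated to 200 to 800 bp. All samples belong to this 1 group, with 2 biological replicates and no second condition, so every value below is a description and no difference was tested. Whole animals mix all tissues, so the peaks are not resolved by cell type. The deposited files are peak lists, so read depth is unknown. The list of replicate 1 held 1370 peaks and that of replicate 2 held 2173. The signal of a peak is the authors' own value on a scale they do not state.

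PBRM-1 (polybromo) belongs to PBAF, a version of the SWI/SNF remodeller that uses ATP to slide or evict nucleosomes. snRNAs are the RNA cores of the spliceosome, and in nematodes spliced leader RNAs (the sls genes) donate the short exon that is joined to the front of many mRNAs. snoRNAs guide the chemical modification of ribosomal and other RNAs; some are cut out of introns and others have promoters of their own. miRNAs are cut from hairpins and repress mRNAs that pair with their seed, bases 2 to 8. Many snRNA genes have a compact promoter whose proximal element is read by the SNAPc complex.

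The sequences immediately upstream are shown first because most of the strongest peaks lay there. Each line gives 90 bases upstream and the first 10 bases of the gene, read on the gene's strand from the RefSeq copy of the WBcel235 (ce11) genome. Capitals mark 3 words that recur upstream of genes with a summit. They are GCGGAAC, then AACCCGC, and TGTCGG. The words were chosen after the sequences had been inspected. The first 5 lines are snoRNA genes, the next 4 are snRNA genes, and the last pair, M03D4.78 and sls-2.2, have strong peaks and none of the words. The stretches are C16D9.11 at chrV:8228960-8229059 (minus strand), Y55F3BR.9 at chrIV:867124-867223 (minus strand), T26A8.6 at chrIV:8428730-8428829 (minus strand), W04D2.7 at chrV:12491190-12491289 (plus strand), Y67A10A.14 at chrIV:14327112-14327211 (minus strand), sup-6 at chrII:12944958-12945057 (minus strand), sls-2.16 at chrIII:7141301-7141400 (plus strand), C52E4.8 at chrV:11980028-11980127 (plus strand), sls-2.8 at chrIII:12250375-12250474 (plus strand), M03D4.78 at chrIV:6117867-6117966 (minus strand) and sls-2.2 at chrII:5543508-5543607 (plus strand).
C16D9.11: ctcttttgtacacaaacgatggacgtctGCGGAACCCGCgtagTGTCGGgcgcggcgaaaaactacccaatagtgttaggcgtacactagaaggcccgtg
Y55F3BR.9: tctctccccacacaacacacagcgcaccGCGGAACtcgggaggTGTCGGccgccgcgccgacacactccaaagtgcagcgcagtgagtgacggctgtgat
T26A8.6: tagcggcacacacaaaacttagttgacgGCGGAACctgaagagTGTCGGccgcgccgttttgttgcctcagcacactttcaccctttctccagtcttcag
W04D2.7: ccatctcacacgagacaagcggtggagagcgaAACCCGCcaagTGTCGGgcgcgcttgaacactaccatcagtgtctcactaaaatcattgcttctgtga
Y67A10A.14: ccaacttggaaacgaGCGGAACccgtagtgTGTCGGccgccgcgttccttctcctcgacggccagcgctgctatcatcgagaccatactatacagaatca
sup-6: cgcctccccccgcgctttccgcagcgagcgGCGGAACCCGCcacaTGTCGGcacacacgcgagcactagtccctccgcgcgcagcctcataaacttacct
sls-2.16: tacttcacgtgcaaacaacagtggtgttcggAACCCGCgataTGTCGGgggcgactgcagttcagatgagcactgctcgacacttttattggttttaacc
C52E4.8: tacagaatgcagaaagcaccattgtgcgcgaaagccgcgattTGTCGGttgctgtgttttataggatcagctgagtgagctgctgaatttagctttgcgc
sls-2.8: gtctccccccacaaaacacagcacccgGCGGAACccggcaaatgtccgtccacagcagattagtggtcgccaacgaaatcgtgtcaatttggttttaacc
M03D4.78: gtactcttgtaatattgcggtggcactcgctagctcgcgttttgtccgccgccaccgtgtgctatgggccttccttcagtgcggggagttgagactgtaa
sls-2.2: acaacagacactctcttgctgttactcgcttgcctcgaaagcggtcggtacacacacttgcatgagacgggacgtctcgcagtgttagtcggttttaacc

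The 3 words sat at similar distances from the genes. GCGGAAC began at a median of -63.5 bp from the 5' end of snoRNA genes with a summit (range -81 to -60 bp) and at -62 bp for snRNA genes (-71 to -60 bp). AACCCGC began at a median of -58 bp in both classes, with a range of -66 to -10 bp in snoRNA and -67 to -55 bp in snRNA genes. TGTCGG began at -49 bp in snoRNA genes (-69 to -43 bp) and at -47 bp in snRNA genes (-91 to -45 bp). GCGGAAC and AACCCGC can overlap, as they do in C16D9.11 and sup-6. All were read on the gene's own strand.

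Genes with a word more often had a summit. GCGGAAC stood in the 100 bp upstream of 24 of the 346 snoRNA genes, and 20 of these (83.3%) had a summit, against 107 of the 322 without the word (33.2%). Among snRNA genes the difference was smaller, 18 of 32 (56.2%) with GCGGAAC and 41 of 97 (42.3%) without it. AACCCGC stood upstream of 33 of the 129 snRNA genes, of which 28 (84.8%) had a summit, against 31 of the 96 without it (32.3%). Among snoRNA genes 12 of 15 with AACCCGC had a summit (80%), against 34.7% of the 331 without it. TGTCGG stood upstream of 32 snoRNA genes and 42 snRNA genes, of which 24 (75%) and 28 (66.7%) had a summit, against 103 of 314 (32.8%) and 31 of 87 (35.6%) without it. With any of the 3 words counted, 32 of 44 snoRNA genes (72.7%) had a summit, against 95 of the 302 with none (31.5%). For snRNA genes the counts were 48 of 76 (63.2%) with a word and 11 of 53 (20.8%) with none. For miRNA genes they were 2 of 11 (18.2%) and 33 of 250 (13.2%), so the shares lay close together in that class. The snRNA genes without a word include all 12 genes of the spliced leader SL1 (sls-1), and none of the 12 had a summit. Their sequences are copies of each other, so they are not separate observations. These words were picked as the ones that most separated genes with and without a summit, apart from TGTCGG, which was picked by eye, so the shares describe these genes and are no test.

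**Figure D1:**
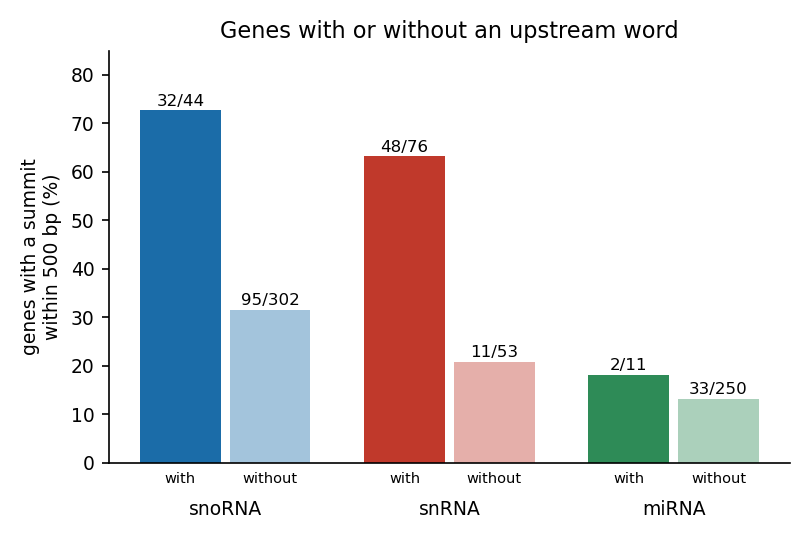
The bars give the percentage of genes of each class with a PBRM-1 summit within 500 bp, for genes with any of the 3 words in the 100 bp upstream (left bar, dark) and genes with none (right bar, pale); the counts stand above the bars. With a word, 72.7% of snoRNA and 63.2% of snRNA genes had a summit, against 31.5% and 20.8% without, while the miRNA bars stood at 18.2% and 13.2%. The snRNA genes with none include all 12 copies of the spliced leader SL1 gene.

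The words are rare elsewhere. On the gene's strand, the 100 bp upstream of 19973 protein-coding genes held GCGGAAC in 0.16%, AACCCGC in 0.195% and TGTCGG in 0.781%, and any of them in 1.11%. On either strand the shares were 0.471%, 0.3% and 1.68%. Yet most bound snoRNA genes lacked them: a word stood upstream of 25.2% of snoRNA genes with a summit, against 81.4% of the snRNA genes with one. The best peak of snoRNA genes with a word had a median signal of 311, against 121 for those without. For snRNA genes the medians were 228 with a word and 139 without.

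Of the 12 snoRNA genes with a word and no summit, C16D9.10 had lost its peak (signal 427) to the rule on tRNA genes. F43A11.8 had a peak in the own list of each replicate, with a signal of 100 in replicate 1 and 134 in replicate 2, but none in the series list. Another gene, on chromosome IV, had candidates of 120 and 190 in replicates 1 and 2. By the member rule, with its limit on tRNA genes, it had no peak in either own list. The other 9 had candidates below 43 in both replicates or no candidate in replicate 2.

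The sequence upstream was also richer in G and C at genes with a summit. The median content of the 100 bp upstream was 53% for snoRNA genes with a summit and 40% for those without. It was 54% and 46% for snRNA genes and 44% and 37% for miRNA genes, against 32% for all protein-coding genes. The snRNA genes without a summit include the 12 SL1 copies, so their median counts repeated sequence more than once. In windows of 100 bp to either side of the summit, members had a median of 47.8%, against 43.8% over the whole series list. The part of base composition in which genes gave peaks was not tested.

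Short motifs known from other contexts were searched on both strands of the same summit windows. The tRNA B box core GGTTCGA stood in 16 of 231 members (6.93%), against 10.7% of the whole list. CTCCGCCC, a motif described upstream of nematode miRNA genes, stood in 5 of 31 miRNA members (16.1%), against 5.19% of all members and 2.9% of the whole list. GAGAGAG stood in 7.36% of members and 12.9% of the list, and TATAAA in 17.3% and 13%. Within the gene sequences, each of these motifs was in at most 5.51% of the genes of any class with a summit. TATAAA was in 1 of 59 snRNA genes with a summit (1.69%), against 14 of 70 without (20%). The 70 include all 12 genes of the spliced leader SL1, and 10 of these have 1 identical sequence. Such copies are not separate observations, so these 2 shares are not compared further.

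The summits crowded just in front of the genes. Of the 231 summits, 124 (53.7%) lay between 100 bp upstream and the gene's first base, and the median position was -25 bp. By class these were 73 of 136 snoRNA summits (53.7%), 43 of 64 snRNA summits (67.2%) and 8 of 31 miRNA summits (25.8%). The median position was -28 bp for snoRNA, -18.5 bp for snRNA and -56 bp for miRNA. The last 50 bp before the gene held 57 snoRNA, 34 snRNA and 2 miRNA summits. Upstream summits numbered 156 in all, 31 lay inside a gene and 44 past its 3' end. A protein-coding 5' end was farther away than the small RNA's own 5' end for 203 members (87.9%). This share is largely set by the rule, which keeps only summits within 500 bp of a small RNA gene. The other series peaks lay at a median of 594 bp from a protein-coding 5' end. Among members outside the 100 bp upstream the share was still 75.7%.

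**Figure D2:**
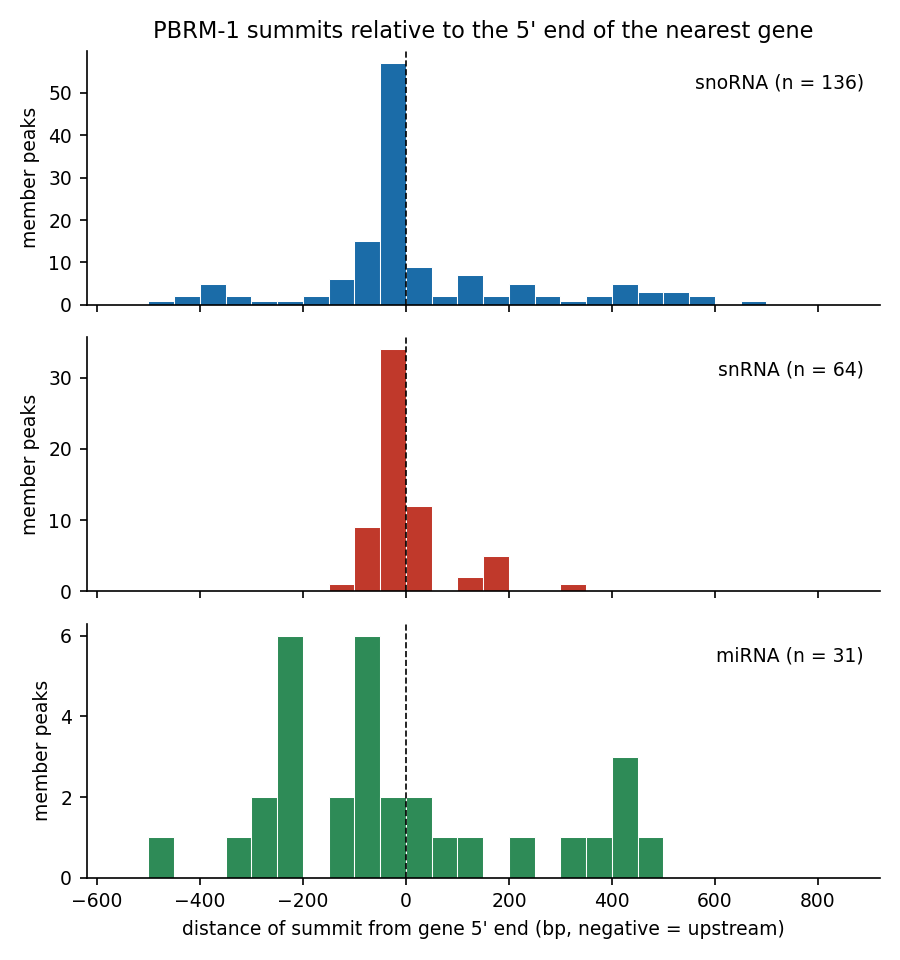
The histograms give the number of member peaks in 50 bp bins of distance between the summit and the 5' end of the nearest gene, by class, with negative distances upstream and the dashed line at the gene's first base. The snoRNA and snRNA panels have a single tall bin directly upstream, with 57 and 34 summits, while the 31 miRNA summits are spread out.

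Members close in front of a gene were also the taller ones. The 124 summits in the 100 bp upstream had a median signal of 185, against 88.9 for the 107 members elsewhere and 91.3 for the other series peaks. The median was 186 in front of snoRNA genes against 86.4 elsewhere near them, 215 against 95.1 for snRNA genes, and 105 against 88.9 for miRNA genes. The replicates gave the same order: the medians were 78.4 upstream and 43.1 elsewhere in replicate 1, and 108 and 51.6 in replicate 2. Members elsewhere thus had signals like those of the rest of the series.

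Over all members the median signal was 136, with quartiles of 86.6 and 237, against 91.3 with quartiles of 71.7 and 132 for the other series peaks. In replicate 1 the medians were 64.5 for members and 41.7 for the others, and in replicate 2 they were 78.4 and 54.3. Members supplied 27 of the 100 strongest peaks in the series, 91 of the strongest 500 and 124 of the strongest 1000. Of the 27, 18 were nearest a snoRNA gene, 9 a snRNA gene and none a miRNA gene, and 24 lay in the 100 bp upstream.

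**Figure D3:**
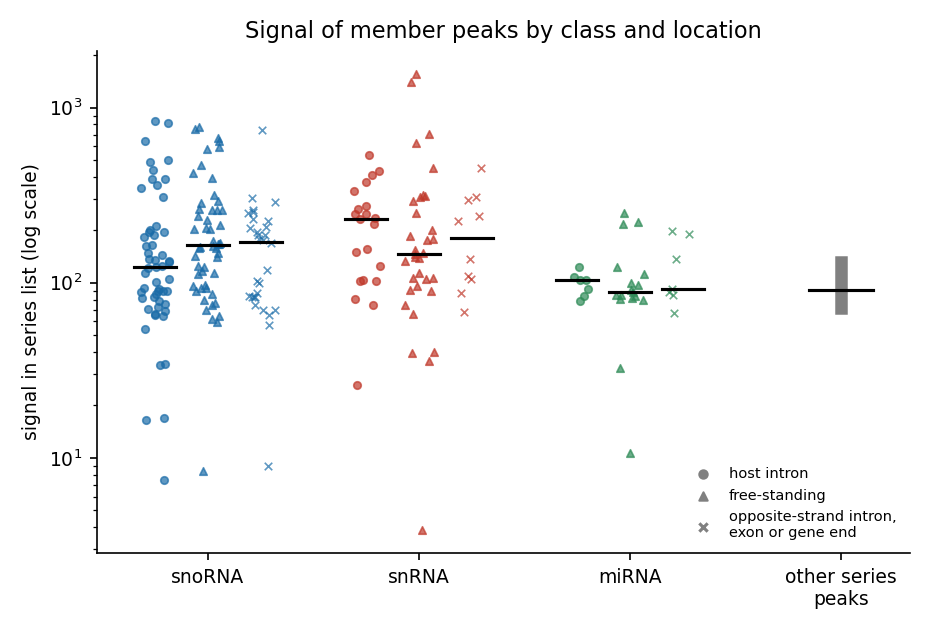
Each point is a member peak, with its signal in the series list on a log axis, by class and by location of the nearest gene (circles, host intron; triangles, free-standing; crosses, other locations); black lines are medians, and the grey bar spans the quartiles of the other series peaks. snoRNA and snRNA peaks reach far above that bar, with medians of 143 and 156 by class, while the miRNA points, with a median of 91.8, lie around it.

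Members recurred in the replicates more often than other peaks. An overlapping peak stood in the own lists of both replicates for 129 members (55.8%), against 998 of the other series peaks (33.1%) and 34.8% of the whole list. Neither own list held 32 members (13.9%), against 1020 of the others (33.9%). By class the share in both lists was 55.9% for snoRNA, 68.8% for snRNA and 29% for miRNA members. It was 72.6% for the summits in the 100 bp upstream and 36.4% for the members elsewhere. Replicate 1 alone held 13 members and replicate 2 alone held 57, and the list of replicate 2 is the longer one. Of the 32, the tallest were F54F11.6, a snoRNA gene (133), the snRNA gene F56H6.15 (104) and sls-2.7 (104).

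A candidate peak covered the summit in both replicates for 210 members. Across these, the signals of the replicates had a Spearman correlation of 0.842 and a Pearson correlation of 0.962, against 0.617 and 0.923 across 2784 other series peaks. Peaks of 1 library share its depth, and members span a wider range of signal, so the coefficients only describe the lists. The signal in replicate 2 was the higher one in 167 of the 210.

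**Figure D4:**
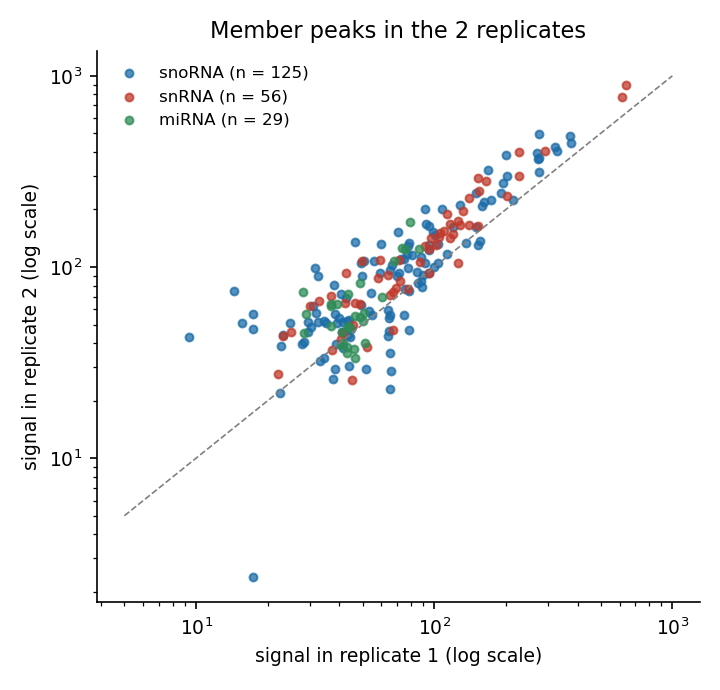
Each point is a member peak with a candidate in both replicates, placed by its signal in replicate 1 and replicate 2 on log axes, by class; the dashed line marks equal values. Most points lie above the line (167 of 210), and both spliced leader peaks at the top right exceed 600 in each replicate.

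snRNA genes had summits most often. A summit lay within 500 bp of 59 of 129 snRNA genes (45.7%), 127 of 346 snoRNA genes (36.7%) and 35 of 261 miRNA genes (13.4%). The background is 7.47% of all 46890 annotated nuclear genes, 12.7% of protein-coding genes and 6.45% of genes of the ncRNA biotype. The miRNA share was thus near that of protein-coding genes, whereas the shares of the other 2 classes were well above it. A longer gene offers more room for a summit, and the shares were not adjusted for gene length. The likeness of the miRNA and protein-coding shares therefore does not mean that miRNA genes are at background. The classes are the annotation's biotypes: the snRNA genes include mir-1831, a miRNA of 22 bases inside sup-39, and the snoRNA genes include smy-2 and smy-3, and all 3 had a summit. Without them the counts were 58 of 128 snRNA genes (45.3%) and 125 of 344 snoRNA genes (36.3%). In the own lists of replicates 1 and 2 the counts were 44 and 52 snRNA genes, 87 and 107 snoRNA genes, and 15 and 28 miRNA genes. Both lists held a summit for 42 snRNA, 77 snoRNA and 11 miRNA genes. At a distance of 200 bp the miRNA count fell to 15, while 59 snRNA and 106 snoRNA genes had a summit.

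On the X chromosome, 4 of 33 snoRNA genes (12.1%) had a summit, against 123 of 313 (39.3%) on the autosomes. The miRNA shares were 8 of 74 (10.8%) on X and 27 of 187 (14.4%) on the autosomes. Only 3 snRNA genes are on X, and 1 of them had a summit. The rule on tRNA genes removed peaks on X at M163.14, a snoRNA gene, and at mir-1829.3 and mir-1819, which lowers these shares on X. The other peaks it removed, at C16D9.10 and sls-2.9, were on autosomes. The share of all genes with a summit was not computed by chromosome. These counts therefore do not show whether the lower share on X is particular to snoRNA genes.

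The spliced leader genes differed by type. A summit lay at 15 of the 18 sls-2 genes, which encode the spliced leader SL2 used for downstream genes of operons, and at 0 of the 12 sls-1 genes, which encode SL1. The 12 sls-1 genes are copies of each other: in all 12, fewer than 50% of the 36-base stretches of the upstream 100 bp occurred once in the genome, and in 11 no stretch did. Of the sls-2 genes, 14 of 18 had only single-copy stretches. The authors' handling of reads from repeats is unstated here, and the part of copy number in this difference was not tested.

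sls-2.4 had the strongest peak of the whole series list, with a signal of 1562, and 639 and 894 in replicates 1 and 2. sls-2.1 followed among members with 1408 (616 and 779), and its summit lay at -40 bp. sls-2.2 had 703 (291 and 402), sls-2.16 had 453 (152 and 292) and sls-2.8 had 453 (165 and 282). sls-2.15 had 373 (140 and 230), with its summit 40 bp inside the gene. The values were high in both replicates for each of the 6.

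Among the other snRNA genes, C52E4.8 had the tallest peak, with 631 in the series list and 227 and 398 in the replicates. Its summit at -39 bp was also in the promoter window of snr-4, which encodes a protein of the spliceosomal Sm family. sup-6 had 537 (227 and 301), with its summit 22 bp inside the gene in an intron of F58G1.7. ZK897.4 had 436 (202 and 235.2) and ZK897.2 had 411 (154 and 249), and both sit in introns of unc-31, a gene needed for dense-core vesicle release in neurons. Y57G11C.35, in an intron of Y57G11C.5, had 335 (133 and 196). The series list also held a weak peak of 3.85 at C52E4.8, the lowest signal of all members, 170 bp past the gene's first base. The 3 members with the lowest signals were this peak, a peak of 7.49 at Y24D9A.10 and a peak of 8.40 at W06H8.17.

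The annotation used gives these snRNA genes no spliceosomal type, so they were grouped by sequence, at 80% identity or more. The family of 19 genes of 185 to 187 bases had 13 with a summit, with a median signal of 108. The family of 13 genes of 156 to 170 bases that holds sup-6 and sup-39 had 8, with a median of 206. The family of 12 genes of 117 to 126 bases that holds ZK897.4 had 10, with a median of 266. In the main sls-2 family 14 of 15 had a summit, with a median of 262. The largest family, 23 genes of 93 to 108 bases, had only 4, led by W05B2.8 (248), and it holds 8 distinct sequences. The smY RNAs, thought to take part in trans-splicing, numbered 12 by symbol, 10 annotated as snRNA and 2 as snoRNA genes. A summit lay at 5 of the 12: smy-3 (294), smy-10 (175), smy-8 (155) and the neighbours smy-1 and smy-2, whose best peak (144) is shared. The other 7 had none, among them all 6 genes of the smY sequence family.

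Sequence copies limit the snRNA counts most. In 27 of 64 snRNA members (42.2%) every 36-base stretch in the 50 bp to either side of the summit occurred once in the genome, against 125 of 136 snoRNA members (91.9%) and 30 of 31 miRNA members (96.8%). In the 100 bp upstream, fewer than 50% of the stretches were single-copy for 6 of 59 snRNA genes with a summit and 25 of 70 without. With only the single-copy summits kept, 26 of the 59 snRNA genes had a summit.

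At snoRNA genes the tallest peak belonged to Y37E3.20, with a signal of 834 and with 370 and 485 in replicates 1 and 2. It lies in an intron of pcyt-2.1, 370 bp from that gene's 5' end, so the peak is also in its promoter window. C16D9.11 had 817 (375 and 444), F59C6.15 had 770 (275 and 496), and M03D4.78 had 751 (328 and 405). Y55F3BR.9 had 744 (322 and 425), T26A8.6 had 670 (271 and 395), and W04D2.7 had 646 (276 and 372). Y67A10A.14 had 643 (273 and 367), Y53F4B.47 had 591 (200.8 and 385), and Y74C9A.6 had 582 (274 and 316). All 10 summits lay between -62 and -16 bp of the gene, and all 10 peaks were in the own lists of both replicates. These genes carry systematic names only, and no target RNA is assigned to them here.

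snoRNAs fall into box C/D RNAs, which guide methylation of the ribose, and box H/ACA RNAs, which guide conversion of uridine to pseudouridine. By letters alone, 13 of the 346 genes had TGATGA in the first 15 bases and CTGA in the last 15, and 58 had ACA at 3 bases from the 3' end. A summit lay at 6 of the 13 (46.2%, median signal 243), 25 of the 58 (43.1%, median 117) and 96 of the 275 with neither (34.9%, median 168). The H/ACA type was mostly in host introns, 45 of 58, of which 19 had a summit. GCGGAAC stood upstream of 4 genes of the C/D type, none of the H/ACA type and 20 of the rest.

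Whether an intronic gene has its peak at its own front or at its host's promoter was compared next. A small RNA gene counts as being in a host intron when it lies wholly in an intron of a protein-coding gene on the same strand. It is free-standing when it overlaps no protein-coding gene. A summit lay at 78 of 255 host-intron genes (30.6%), 32 of 80 genes in introns on the opposite strand (40%), 16 of 63 that overlap an exon or gene end (25.4%) and 95 of 338 free-standing genes (28.1%). Among snoRNA genes the shares were 50 of 150 (33.3%) in host introns and 49 of 124 (39.5%) free-standing. Among snRNA genes they were 20 of 36 (55.6%) and 29 of 62 (46.8%), and among miRNA genes 8 of 69 (11.6%) and 17 of 152 (11.2%). The own lists of replicates 1 and 2 held 49 and 67 of the host-intron genes. When a free-standing gene also had to have no protein-coding gene within 500 bp, 36 had a summit. Fewer genes meet that definition and their number was not counted, so the 36 give no share. The highest share was at snoRNA genes in opposite-strand introns, 17 of 28 (60.7%).

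**Figure D5:**
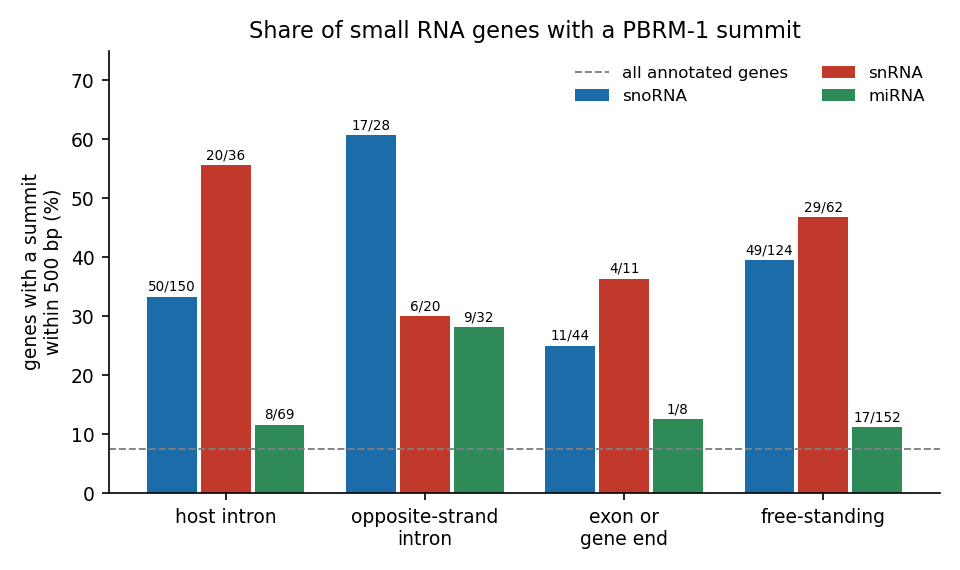
The bars give the percentage of snoRNA, snRNA and miRNA genes with a PBRM-1 summit within 500 bp, by the gene's place relative to protein-coding genes, with counts above the bars and a dashed line at 7.47%, the share of all annotated genes. In host introns, in exons or gene ends and among free-standing genes the snRNA bar is the tallest; in opposite-strand introns the snoRNA bar is, at 17 of 28.

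The 82 host-intron members lay in 70 host genes. The summit was in the host's own promoter window (1000 bp upstream to 200 bp downstream of a 5' end) for 19 (23.2%), only in another gene's window for 14, and in none for 49. The median distance to the host's 5' end was 1281 bp. The summit lay in the 100 bp in front of the small RNA gene for 42 of the 82, and 30 of these were in no promoter window. For example, the peak of C16D9.11 lay 9385 bp from the 5' end of its host rol-3, a receptor tyrosine kinase gene, and that of ZK994.7 (441, with 213 and 224 in the replicates) lay 5653 bp from that of pxn-1, a peroxidasin gene. W04D2.7 lay 1781 bp from the start of the innexin gene inx-11. C08D8.3 had 503 (203 and 300) at 3300 bp from the start of its host.

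Hosts that encode ribosomal proteins gave another picture, which was looked at after their names were seen. Of 24 small RNA genes in their introns, 12 (50%) had a summit, against 66 of 231 (28.6%) in other hosts. None of their 13 member peaks lay in the 100 bp upstream of the small RNA gene, against 42 of 69 in other hosts, and 5 of the 13 were in the host's own promoter window. None of the 24 genes had any of the 3 words upstream, against 43 of the 231. The strongest was the peak near Y24D9A.9 in rpl-7A, with 488 (168 and 322), whose summit lay 346 bp before the snoRNA gene and 64 bp from the start of rpl-7A. The peak near F54E7.10 in rps-12 had 346, and its summit too was in the window of its host. The 13 peaks had a median signal of 89.7, against 124 for those in other hosts. Both replicates' own lists held 38.5% of the 13, against 52.2% of the 69. The host groups were not matched by class of small RNA. Host-intron shares with a summit differed by class, at 33.3% for snoRNA, 55.6% for snRNA and 11.6% for miRNA genes.

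Protein-coding promoters held fewer members than other peaks. A summit in a promoter window was found for 96 members (41.6%), against 1598 of the other series peaks (53.1%) and 52.2% of the whole list. By class the shares were 42.6% for snoRNA, 45.3% for snRNA and 29% for miRNA members. By location they were 40.2% for host introns, 20.7% for opposite-strand introns, 55.6% for exons or gene ends and 46.1% for free-standing genes. The own lists of replicates 1 and 2 gave 59 and 75 members in promoter windows, and a narrower window (500 bp upstream to 100 bp downstream) held 56 members of the series list. Height differed little by promoter window: in front of the gene, the 48 members inside a window had a median signal of 181 and the 76 outside had 193. Away from the gene's front the medians were 86.9 for 48 members inside a window and 91.8 for 59 outside. The share in both replicates' lists was 70.8% and 73.7% in front of the gene, and 39.6% and 33.9% away from it.

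miRNA peaks were lower and more scattered. The 31 peaks had signals from 10.6 to 250, with a median of 91.8, against 91.3 for the other series peaks. The strongest lay by mir-5549, with 250 in the series list and 79.2 and 171 in replicates 1 and 2. Its summit at -17 bp was also in the promoter windows of eef-1A.1, a translation elongation factor gene, and rfc-4, a clamp loader gene. mir-4932 had 223 (86.6 and 125), with the summit 14 bp from a protein-coding 5' end in the windows of klp-16, a kinesin gene, and smn-1, the survival motor neuron gene. mir-1824 had 198 (73.1 and 126), with the summit 92 bp from a protein-coding 5' end. So 3 of the 4 strongest miRNA peaks lay within 200 bp of a protein-coding start, and position alone does not assign them to the miRNA. After them came the peaks by mir-54 and mir-35, given below with their families, and then mir-794 with 123 (43.5 and 72.5), mir-4812 with 122 (60.3 and 69.4), mir-8196.1 with 112 (50.6 and 57.3) and mir-1829.2 with 107 (50.5 and 52.5). Of these 4, mir-794 was in the own list of replicate 2 only and the others were in both. Of the 7 peaks at miRNA genes in host introns, mir-4812 and mir-1829.2 led, followed by mir-229 with 103 (39.2 and 64.1), mir-2214 with 103 (36.7 and 63.7) and mir-2 with 91.8 (44.2 and 47.9).

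The mir-51 family had the most members with a summit among the miRNA families examined. Its mature RNAs share the seed in capitals and are shown for that reason, as RefSeq on WBcel235 gives them.
mir-51: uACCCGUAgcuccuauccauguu
mir-52: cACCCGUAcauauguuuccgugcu
mir-54: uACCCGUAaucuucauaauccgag
mir-55: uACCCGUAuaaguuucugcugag
mir-56: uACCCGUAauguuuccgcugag

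mir-51 itself had a signal of 216, with 75.3 and 124 in the replicates. Its summit at -64 bp was 3009 bp from any protein-coding 5' end. A peak of 190 (67.9 and 108) in front of mir-54 also reached mir-55, since the genes are neighbours on X. mir-56, next to them, had a peak of 88.9 (46.0 and 37.4) and mir-52 had 88.3 (46.4 and 33.5), and both stood in the own list of replicate 1 only. So 5 of 6 family genes had a summit, from 4 main peaks, and mir-53 had none. The mir-51 family is known to act broadly in embryonic development, largely redundantly.

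The mir-35 family, which is needed for embryonic viability, is made from a cluster of hairpins.
mir-35: uCACCGGGuggaaacuagcagu
mir-36: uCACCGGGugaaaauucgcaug
mir-37: uCACCGGGugaacacuugcagu

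A peak of 136 (48.9 and 82.2) lay in front of the cluster and reached these 3 genes by the distance rule, so they are not separate observations. The other 5 of the 8 family genes were without a summit. Of the let-7 family of developmental timing miRNAs, 2 of 7 had one. These were mir-241 with 84.0 (41.4 and 40.0) at -465 bp, and mir-794, with its summit 414 bp past the gene's 3' end. The mir-241 peak was in neither replicate's own list. Of the 5 bantam-like genes that matched, mir-58.1 had 83.6 (43.2 and 38.4) and mir-80 had 80.5 (42.9 and 35.3), at -299 and -249 bp. The mir-58.1 peak was in neither own list, and the mir-80 peak was in that of replicate 2 only. lin-4 and mir-237, mir-1, lsy-6 and mir-71 had no summit. Shares of these small lists are read against 13.4% of all miRNA genes, and no list was tested.

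Proteins that build or use these RNAs were looked up in the promoters of their genes. A summit in the promoter window was found for 7 of 8 genes of snoRNA-protein complexes, against 9.87% of all protein-coding genes. These were fib-1 (228, with 93.9 and 132 in replicates 1 and 2), the fibrillarin methyltransferase; nol-58 (193) and nol-56 (83.3), its scaffold partners; dkc-1 (152), the pseudouridine synthase; and nola-3 (93.8), Y48A6B.3 (89.8) and garr-1 (68.7), of the H/ACA complex. snu-13 had none. The nol-56 peak is itself a member, since K07C5.11, a snoRNA gene, lies 409 bp from its summit. For snRNA transcription and 3' processing, 5 of 20 genes had one: ints-4 (366) and ints-8 (64.3) and ints-9 (56.8) of the Integrator complex, and snpc-3.4 (204) and snpc-3.1 (76.0) of SNAPc. For miRNA processing, 4 of 11 had one: ain-1 (245), a partner of Argonaute; xrn-2 (105), an exonuclease; lin-28 (95.3), a let-7 binding protein; and alg-1 (66.5), an Argonaute. dcr-1, drsh-1 and pash-1, which cut the hairpins, had none. The peaks of fib-1, nol-58, dkc-1, nola-3, Y48A6B.3 and garr-1 also lay in another gene's window, as did those of snpc-3.1, ints-9 and lin-28. Position alone does not assign these shared peaks to either gene. Of the snoRNA-protein genes with a peak, only nol-56 had it in no other gene's window. Those of garr-1, ints-8 and alg-1 were in neither replicate's own list.

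At the edge of the rule, 10 members lay more than 400 and up to 500 bp from the gene, with signals from 34.4 to 200 and a median of 83.6. Just outside, 17 peaks more than 500 and up to 600 bp away had signals from 66.2 to 912 and a median of 97.3. Of the 736 genes, 515 had no summit, but many had a candidate in the authors' ranked lists of all candidates: 110 of 219 snoRNA, 25 of 70 snRNA and 69 of 226 miRNA genes had one in both replicates. Only 2 of these snoRNA genes were in the own lists of both. A summit in the own list of at least 1 replicate was found for 7 of the 219 snoRNA, 1 of the 70 snRNA and 2 of the 226 miRNA genes. These own-list counts leave out peaks close to a tRNA gene. A few others, such as C16D9.10 (427) and sls-2.9 (249), had a peak in the series list that the rule on tRNA genes removed. The absence of a summit thus does not show that PBRM-1 was absent.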

How the data were processed

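Chromatin immunoprecipitation and sequencing of tagged PBRM-1 was done by the authors on 2 biological replicates. They deposited ranked and thresholded narrow peak lists on ce11, per replicate and for both together; which aligner and peak caller made them is something not given in the sources used here. Read depth is unknown. Per peak, the authors deposited a signal value of unstated scaling, a score scaled from the irreproducible discovery rate (lowest in the series list 830), and the q value as −log10. Summits come from an offset that the authors deposited beside each interval.

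Summits were placed on Ensembl release 115 genes (WBcel235) with Python 3.11.15 and numpy 2.4.6, and drawn with matplotlib 3.10.9; the placement was tested on simulated data. Symbols were matched to RefSeq for all 736 small RNA genes. The tRNA distance, the class distance (500 bp) and promoter windows are as stated in the results. A replicate's signal is that of the strongest candidate peak in its own ranked list that covers the summit; overlap with an own thresholded list is at least 1 bp. With 1 group, no test was possible, and with no read counts no interval was computed. Named genes are the 10 strongest members of each class, the strongest 5 in host introns and free-standing, the weakest 3, the strongest 3 in neither own list, and miRNA and protein lists. The members and lists were chosen with earlier results of these data known. Alternatives tried are given at the end. Replicate ranked lists and thresholded lists were used; the series ranked lists were not used here, nor was a control experiment that the labels name.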

Additional observations from a re-analysis of the deposited data

How the results depend on the processing

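No paired analysis was possible because all samples form 1 group. Of 112 values recomputed over 17 alternatives, 95 stayed within 1.5 times of the main count, or within 9.83, the SD of both replicates' medians, of the main median signal (136), and 17 moved. The miRNA genes with a summit (35) fell to 15 at a distance of 200 bp and to 18 with peaks of at least the list's median signal (92.9). Members in promoter windows (96) became 61 with those stronger peaks and 56 with windows of 500 bp upstream to 100 bp downstream. Free-standing genes with a summit (95) became 36 when a protein-coding gene within 500 bp also barred a gene. That change also lowers the number of genes that can count, so it does not show a lower share. Median signal was 157 at 200 bp, 122 at 1000 bp, 148 in the conservative list, 158 with q of at most 0.05 and 194 with the stronger peaks. With the list of 1 replicate alone, members numbered 149 to 190 and miRNA genes 15 to 28. Members in promoter windows numbered 59 to 75 and host-intron genes 49 to 67. The lower counts are those of replicate 1. The median signal was then 87.4 to 95.3, but on the replicates' own scale. There the main members had medians of 64.5 and 78.4, so these medians cannot be set against 136. The limit of 9.83 is on that scale too. The last 3 alternatives were added after seeing the data. Members whose summit windows hold only single-copy 36-base stretches left 26 of 59 snRNA genes, and leaving out members that overlap a stronger peak, or genes whose symbol names another kind of RNA, moved nothing. Summits in the 100 bp upstream (124) stayed between 94 and 125 under all 6 alternatives tried for them. Of the 6, the midpoint of the peak in place of its summit could change little. For 147 of the 231 members the interval was 320 bp wide with the summit at its centre. The midpoint values are counted among the 95 that stayed. Depth is unknown, copies limit snRNA genes, and unpassed candidates do not show absence of binding.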
